A study of Mus musculus with 6 samples.

Results

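The genes described here are 10 markers of the mesothelium, the cell sheet that forms the outer surface of the heart as the epicardium. They are Msln, Upk3b, Upk1b, Lrrn4, Krt8, Krt18, Krt19, Bnc1, Wt1 and Tcf21. The list was chosen with earlier results of these data known, so comparisons of it with the whole array are descriptions. Every probe set that the array annotation ties to 1 of these genes alone was used. That gave 17 probe sets of the 45037 tested and 10 genes of 18193. Each gene was represented by the probe set whose mean over the 6 mice was highest. In these ventricular apices 8 of the 10 genes differed widely between mice of the same group, more among knockouts than among controls. No probe set of the 10 genes passed the test between knockout and control mice.

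Mesothelium lines the pericardial, pleural and peritoneal cavities and the organs within them. It is an epithelium of mesodermal origin and makes simple-epithelial keratins together with surface proteins such as mesothelin and uroplakins. In the embryonic heart, epicardial cells under the control of transcription factors such as Wt1 and Tcf21 lose their epithelial character and give rise to fibroblasts and mural cells. In the adult heart the epicardium is a thin layer, so its RNA is a small part of a piece of ventricular wall.

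The study asked which genes change in the adult mouse heart when PTIP, the protein of Paxip1 and a partner of histone H3K4 methyltransferases, is lost. RNA came from left ventricular apices of 6 female littermates on a mixed C57B6 and B6129 background, 3 per group, and each mouse was measured on its own Affymetrix array. The PTIP KO mice carried a floxed and a null PTIP allele and a transgene that expresses a fusion of a modified estrogen receptor and Cre recombinase from the cardiac alpha myosin heavy chain driver. In PTIP+ mice a floxed allele was paired with a wild-type one, and no Cre transgene is named for them. Both groups were given tamoxifen (20 mg/kg, into the peritoneum) at 8 weeks of age, and hearts were taken 5 days after injection, although another label speaks of treatment over 5 days. The driver is active in cardiomyocytes, so mesothelial cells of the knockout mice are outside the tissue that the Cre transgene targets, but they carry the null allele.

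Expression is given as deposited, in log2 units from RMA, which corrects background, normalises the arrays to one another and summarises the probes of each probe set. All values below are on that scale, where a difference of 1 is a doubling. The 6 arrays had medians between 5.15 and 5.26 and correlated between 0.989 and 0.995 over all probe sets. Paxip1 was lower in all 3 knockout mice than in all 3 controls on each of its 4 probe sets, by differences of -1.83 to -0.95, and 3 of the 4 passed (limma, adjusted p under 0.05). The mean deviation over 11 cardiomyocyte genes lay between -0.04 and 0.04 in the 6 mice. Single genes of that list ranged further, up to 0.88 for Nppa, the gene of atrial natriuretic peptide, which differed by 0.54 between the groups (limma adjusted p = 0.458) and was named after its values were seen. The 13 probe sets of Y-linked genes, which female tissue lacks, had a median of 2.45 and reached 5.50, so a reading in that range may be background alone. Their 90th percentile was 4.54. The highest reading came from a Sry probe set whose suffix marks probes that may also match other transcripts.

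Genes of mesothelial surface proteins varied widely, Upk3b and Upk1b most of all 10 genes. Msln, the gene of mesothelin, a glycoprotein anchored to the cell surface, read 6.39, 5.15 and 7.72 in knockouts 1 to 3, against 7.49, 7.39 and 6.82 in controls 1 to 3. Knockout 2 was the lowest of the 6 mice and knockout 3 the highest, and the groups overlapped. Upk3b, a uroplakin first known from the urothelium and strongly expressed by mesothelial cells, read 7.07, 5.37 and 8.84 in knockouts 1 to 3, against 8.38, 8.52 and 7.59 in controls 1 to 3. Knockout 3 thus lay 11.1-fold above knockout 2 for Upk3b, both with the same genotype, but the reading of knockout 2 lies in the range of the Y-linked probe sets, so this ratio of signals may understate the difference. The other Upk3b probe set placed the mice in the same order in 15 of 15 pairs of mice, with a 12.0-fold range. In a bulk sample, fewer mesothelial cells and less of these RNAs per cell cannot be told apart.

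Upk1b is a tetraspanin that pairs with uroplakins of the Upk3 type. Its brightest probe set read 4.79, 3.37 and 6.36 in knockouts 1 to 3, against 6.13, 5.92 and 4.21 in controls 1 to 3. All 4 probe sets of Upk1b were lowest in knockout 2, and each of the 3 others ordered 14 of the 15 pairs of mice as the brightest did. Lrrn4, a membrane protein with leucine-rich repeats, read 4.35, 3.40 and 6.02 in knockouts 1 to 3, against 5.60, 5.69 and 4.04 in controls 1 to 3. For Lrrn4, knockout 2 was again lowest and knockout 3 highest, control 3 was the next lowest, and the readings of the low mice lay in the range of the Y-linked probe sets.

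**Figure D1:**
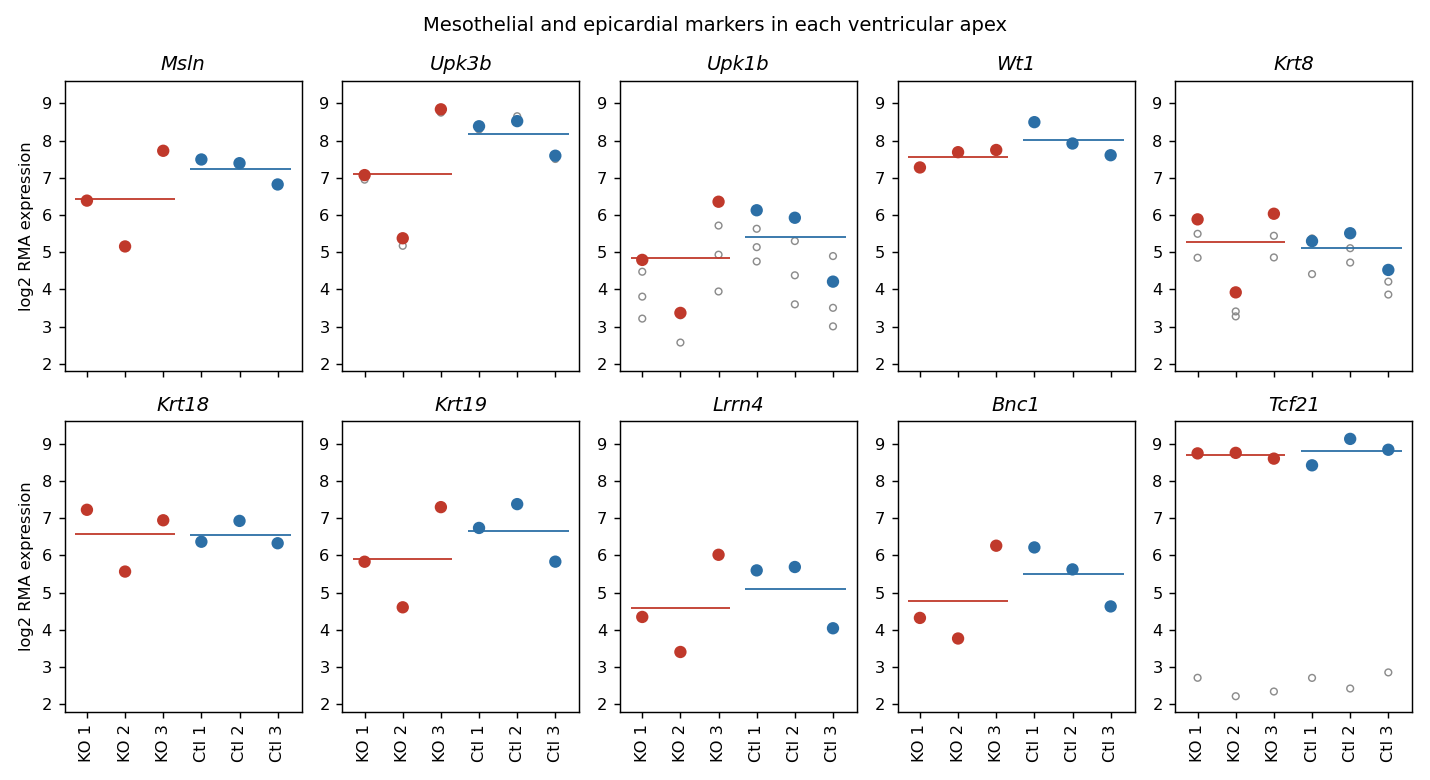
Log2 expression of the 10 genes in each mouse; filled points are the probe set that represents the gene (red, knockout, KO; blue, control, Ctl), open points its other probe sets, and lines the group means of the filled points. Knockout 2 is the lowest filled point in 8 of the 10 panels, while the filled points of Tcf21 are nearly level.

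The transcription factor genes did not all follow this order. Bnc1, the gene of the zinc finger protein basonuclin 1, did: it read 4.32, 3.77 and 6.26 in knockouts 1 to 3, against 6.21, 5.62 and 4.63 in controls 1 to 3. Of the 15 pairs of mice, 14 were ordered for Bnc1 as for Upk3b. Wt1, the zinc finger factor of epicardial cells, read 7.28, 7.69 and 7.75 in knockouts 1 to 3, against 8.49, 7.92 and 7.61 in controls 1 to 3. Here knockout 1 was lowest and control 1 highest, knockouts 2 and 3 were nearly level, and 10 of the 15 pairs of mice were ordered as for Upk3b. Tcf21, a basic helix-loop-helix factor of epicardial progenitors that cardiac fibroblasts keep in the adult, read 8.74, 8.76 and 8.60 in knockouts 1 to 3, against 8.42, 9.13 and 8.84 in controls 1 to 3. The 3 knockout values of Tcf21 spanned 0.16, against 3.47 for Upk3b. Among the 3 controls this contrast was small, with spans of 0.71 for Tcf21 and 0.89 for Wt1, against 0.93 for Upk3b and 0.67 for Msln. The second Tcf21 probe set was dim, at 2.21 to 2.85.

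The promoters of 3 genes that shared the order (Upk3b, Lrrn4 and Bnc1) and of Tcf21, which did not, are shown to let their sequence be compared. RefSeq's table for GRCm38.p6 held 6 of the 10 genes, and each sequence gives the 250 bases before the start of the gene. Capitals mark CATTCC, the core of the site of TEAD factors, or GGGCGG, the GC box, on either strand, and the marked matches do not overlap.
Upk3b, chr5:136038246-136038495, plus strand: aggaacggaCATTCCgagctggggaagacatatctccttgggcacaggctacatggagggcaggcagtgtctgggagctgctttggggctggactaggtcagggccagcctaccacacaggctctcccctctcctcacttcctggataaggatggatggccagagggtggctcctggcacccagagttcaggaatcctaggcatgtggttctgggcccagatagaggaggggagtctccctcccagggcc
Lrrn4, chr2:132880863-132881112, minus strand: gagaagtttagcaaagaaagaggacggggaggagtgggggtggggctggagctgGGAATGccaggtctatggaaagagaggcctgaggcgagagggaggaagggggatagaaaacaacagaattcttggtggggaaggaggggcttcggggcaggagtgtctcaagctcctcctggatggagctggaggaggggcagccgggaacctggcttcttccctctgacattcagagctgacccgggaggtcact
Bnc1, chr7:81992300-81992549, minus strand: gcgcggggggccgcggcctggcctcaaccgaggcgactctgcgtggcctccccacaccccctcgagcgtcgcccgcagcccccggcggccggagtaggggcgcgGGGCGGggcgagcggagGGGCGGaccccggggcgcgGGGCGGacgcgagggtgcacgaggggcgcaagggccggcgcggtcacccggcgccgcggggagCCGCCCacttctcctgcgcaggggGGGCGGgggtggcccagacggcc
Tcf21, chr10:22820144-22820393, minus strand: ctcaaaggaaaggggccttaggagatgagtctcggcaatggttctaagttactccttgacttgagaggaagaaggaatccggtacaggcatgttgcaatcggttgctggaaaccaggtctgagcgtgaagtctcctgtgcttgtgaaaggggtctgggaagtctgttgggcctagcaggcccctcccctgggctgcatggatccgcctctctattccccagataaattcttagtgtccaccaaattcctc

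The TEAD core stands in 2 of the 6 promoters found, those of Upk3b, 241 bases before the start, and Lrrn4, 196 bases before it. Of all 32851 promoter windows of this length in the table, 12.6% hold that core. Bnc1 has 5 GC boxes, at a GC content of 83.6%, and 32.7% of all windows have at least 1. The upstream window of Tcf21 has a GC content of 52.4%. TGANTCA, the site of AP-1, TATAAA, the TATA box, and GCGTGGG, part of the sites of EGR1 and WT1, are in none of the 6 windows, against 6.75%, 12.4% and 4.30% of all. These are matches of letters in a short window and no measure of binding.

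The keratins split. Krt19, a type I keratin without the tail of its relatives, read 5.83, 4.60 and 7.30 in knockouts 1 to 3, against 6.74, 7.38 and 5.83 in controls 1 to 3, and 14 of 15 pairs of mice were ordered for Krt19 as for Upk3b. Krt18, a type I keratin that pairs with Krt8, read 7.23, 5.57 and 6.94 in knockouts 1 to 3, against 6.37, 6.93 and 6.33 in controls 1 to 3. Its type II partner Krt8 read 5.88, 3.92 and 6.03 in knockouts 1 to 3, against 5.30, 5.51 and 4.52 in controls 1 to 3. Knockout 2 was lowest for all 3 keratins, but knockout 1 stood elsewhere: it was the highest mouse for Krt18 and the second highest for Krt8. Knockout 1 minus knockout 3 was 0.28 for Krt18 and -0.15 for Krt8, against -1.47 for Krt19, -1.34 for Msln and -1.77 for Upk3b. Krt8 and Krt18 ordered 14 of 15 pairs of mice alike, and Krt18 and Krt19 ordered 10 of 15 alike. All 3 probe sets of Krt8 were lowest in knockout 2, though 2 of them have the suffix _x_at, which marks probes that may also match other transcripts.

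The list of 22 other keratins and epithelial junction genes gives values to set beside those of knockout 1. None of the 22 passed between the groups (limma, 6 at an unadjusted p under 0.05, where 9.27% of all genes are). Their median difference was 0.17, with 19 higher and 3 lower in the knockout mice, while 44.9% of all genes were lower. Those with the smallest p were Krt80, a keratin of stratified epithelia, with a difference of 1.11 (SE 0.26, limma adjusted p = 0.226), Tchp, a keratin-binding protein, with 0.54 (SE 0.17, adjusted p = 0.383), and Epcam, an adhesion molecule of epithelia, with 0.64 (SE 0.22, adjusted p = 0.437). Knockout 1 was the highest mouse for 6 of the 22, and for 22.1% of all genes. Among those 6, chosen after their values were seen, Epcam read 4.82 in knockout 1 and 3.46 to 4.44 in the other 5 mice. Cdh1, the gene of E-cadherin, read 4.36 in knockout 1 and 3.07 to 4.08 in the others. Cldn7, a tight junction claudin, read 4.31 in knockout 1 and 3.01 to 3.60 in the others. The others of the 6 were Tchp, Plec and Itgb4. Elsewhere in the list, Krt5, Krt14, Krt23, Krt80, Cldn3, Dsc2 and Evpl were highest in knockout 3. Krt20, Ppl, Pkp3, Dsp and Jup were highest in control 1. Krt17 and Dsg2 were highest in knockout 2, Cldn4 in control 2 and Pkp2 in control 3. These too were named after their values were seen. Epcam, Cdh1 and Cldn7 read below the highest Y-linked probe set in every mouse, and their part in the Krt8 and Krt18 values was not tested.

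Between the groups, 0 of the 17 probe sets passed with limma at an adjusted p under 0.05, where 0.191% of all 45037 probe sets passed. At an unadjusted p under 0.05 the count was also 0 of 17, against 9.07% of all, and the groups overlapped on 17 of 17, where 14.4% of all probe sets had groups that did not overlap. Counted by gene, the groups overlapped for 10 of 10, while 16% of all genes had groups apart and 0.286% passed. The smallest limma adjusted p was 0.670, and exact permutation p values ran from 0.3 to 1, where 3 against 3 mice cannot go below 0.1. By sign, 8 of the 10 genes were lower in the knockout mice and 2 higher, with a median difference of -0.55, against 0.02 over all genes, of which 44.9% were lower.

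The intervals of these differences are wide. Upk3b averaged 7.09 ± 1.73 among knockouts, against 8.17 ± 0.50 among controls (± SD with n = 3 per group), a log2 difference of -1.07 with a 95% interval from -2.88 to 0.74 (limma adjusted p = 0.774). Msln differed by -0.81 with an interval from -2.16 to 0.53, and Krt19 by -0.74 with an interval from -2.30 to 0.82. Bnc1, Upk1b and Lrrn4 differed by -0.71, -0.58 and -0.52, each with a standard error of 0.66 to 0.78. Krt8 and Krt18 differed by 0.17 (interval -1.13 to 1.47) and 0.04 (interval -0.93 to 1.01). These intervals hold both a 2-fold decrease and no change for every one of those genes but Krt18, so the size of any group difference was not resolved at 3 mice per group.

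Wt1 and Tcf21, with less spread, had narrower intervals. Wt1 averaged 7.57 ± 0.26 among knockouts, against 8.01 ± 0.45 among controls (± SD with n = 3 per group), which is -0.44 with an interval from -0.999 to 0.12 (limma adjusted p = 0.670). Tcf21 averaged 8.70 ± 0.09 and 8.80 ± 0.36 (± SD with n = 3 per group), a difference of -0.10 with an interval from -0.53 to 0.33 (limma adjusted p = 0.932). A single mouse set much of the direction: without knockout 2, the difference of Upk3b was -0.21, that of Msln -0.18, and 6 of the 10 genes were lower and 4 higher.

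**Figure D2:**
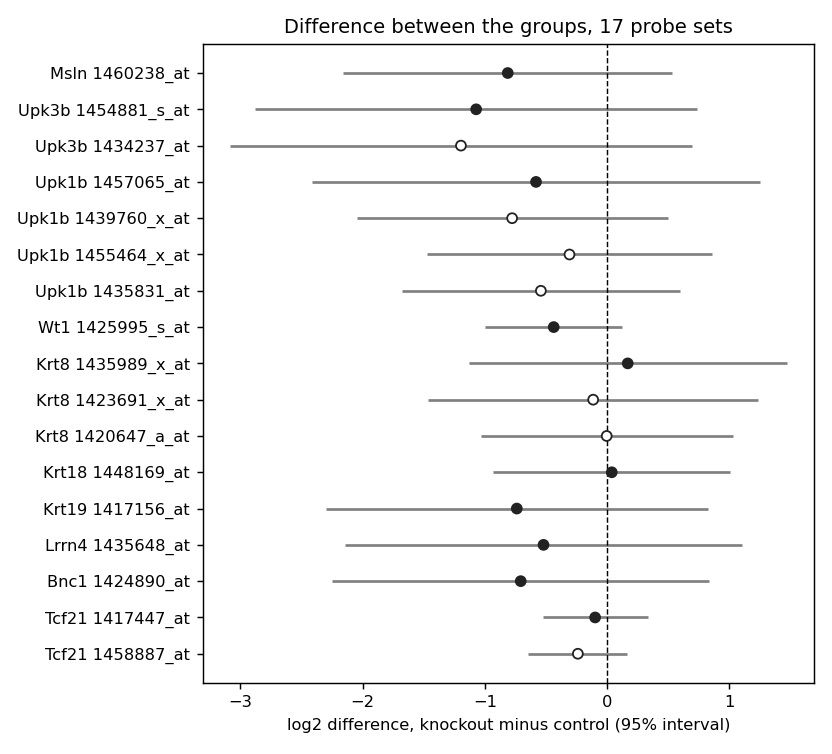
Log2 difference, knockout minus control, of each of the 17 probe sets with its 95% interval from limma; filled points represent their gene and open points are its other probe sets. Each interval crosses 0, and those of Upk3b and Upk1b are the widest among the filled points.

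The spread within a group sets these genes apart from most of the array, a description only, since the list was chosen with earlier results known. The within-group standard deviation, pooled over both groups, was 1.28 for Upk3b, which is above that of 99.9% of all probe sets, and the median over all genes was 0.17. It was 1.29 for Upk1b, 1.14 for Lrrn4, 1.10 for Krt19, 1.09 for Bnc1, 0.94 for Msln and 0.91 for Krt8. Krt18, with the smallest spread of these 8 genes at 0.67, still lay above 99.2% of probe sets. Wt1 (0.37) and Tcf21 (0.26) lay above 90.0% and 73.6% of probe sets. For each of the 8 genes the spread was larger among knockouts than among controls. Among controls alone, the standard deviations of Wt1 (0.45) and Tcf21 (0.36) were near those of Msln (0.36) and Krt18 (0.34). Those of the other genes ran from 0.50 (Upk3b) to 1.05 (Upk1b). A range over the 6 mice of at least 2 log2 units was seen for 7 of the 10 genes and for 0.874% of all genes. The share of the variance over mice that lay between the groups was between 0.121% (Krt18) and 34.8% (Wt1), with a median of 10.5% for the 10 genes and 16.2% for all genes.

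**Figure D3:**
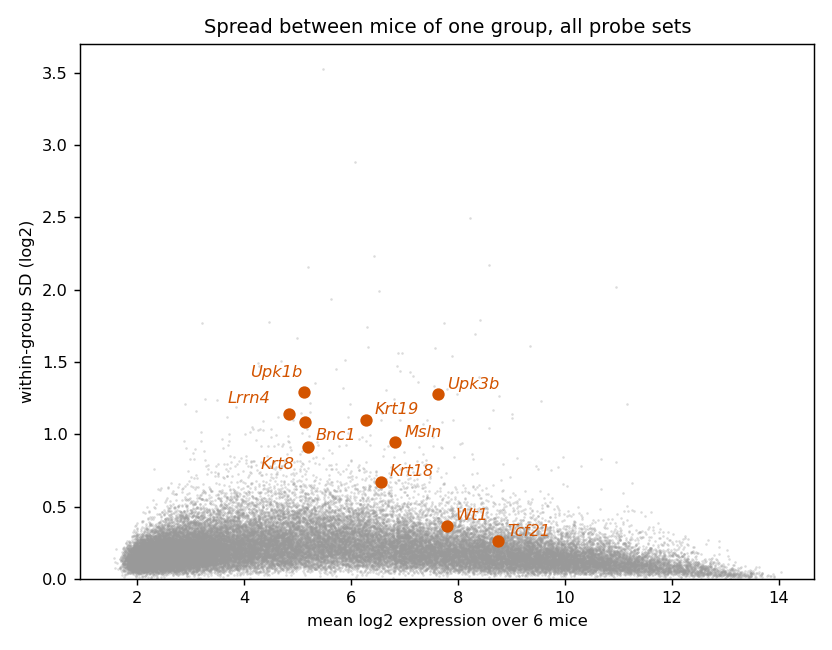
Within-group standard deviation of log2 expression against the mean over 6 mice, for all 45037 probe sets (grey) and the probe sets that represent the 10 genes (orange). Of the 10, 8 stand above the mass of probe sets of like brightness, and Wt1 and Tcf21 lie within it.

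To rank the mice, each gene was expressed as its deviation from its own mean over the 6 mice, and the 10 deviations were averaged for each mouse. This surface-layer index was -0.23, -1.25 and 0.77 in knockouts 1 to 3 and 0.50, 0.59 and -0.37 in controls 1 to 3. The 3 knockout mice held both the lowest and the highest of the 6 values, 2.02 apart, which is 4.06-fold. For 7 of the 10 genes the reading of knockout 2 was below the highest Y-linked probe set, so this distance too may be understated. Of these, only Upk1b (3.37), Krt8 (3.92), Lrrn4 (3.40) and Bnc1 (3.77) were also below the Y-linked 90th percentile of 4.54. The group means were -0.24 ± 1.01 among knockouts, against 0.24 ± 0.53 among controls (± SD with n = 3 per group), and their difference of -0.48 was smaller than the standard deviation of either group. It was 0.03 without knockout 2. Knockouts 1 and 2 also carry description numbers from another run of numbers than the other 4 mice, and the labels do not say what these numbers record. Among those 4 mice, knockout 3 against 3 controls, the index difference was 0.53 and 8 of the 10 genes were higher in the knockout, while the other run of numbers holds no control. Each mouse has 1 array, so the distance between 2 mice has no error of its own. The agreement of probe sets of the same gene given above is within the same arrays, so it repeats neither the sample nor the array.

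Knockout 2 was the lowest mouse for 8 of the 10 genes and 15 of the 17 probe sets, and for 14.5% of all genes. Control 3 was the lowest of the 3 controls for 9 of the 10 genes, and for 33.2% of all genes. For actin, the 3' minus the 5' control probe set, a gauge of RNA degradation, stood at 1.51, 1.45 and 1.64 in knockouts 1 to 3, against 1.85, 1.17 and 1.38 in controls 1 to 3. Knockout 3 and control 1, with the highest actin values, had indices above 0, as had control 2, with the lowest. The 3 mice with indices below 0 had actin values in between, and the part of RNA quality in the index was not tested.

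Of 15 further mesothelial and epicardial genes, some followed the index over the mice and others did not. Pearson's r with the index, a description over 6 mice, was at least 0.9 for 5 of the 15, and it was -0.71 for Tbx18, -0.34 for Aldh1a1 and -0.23 for Anxa8. The mean deviation over the 15 was -0.16, -0.48 and 0.39 in knockouts 1 to 3, against 0.18, 0.22 and -0.16 in controls 1 to 3, where knockout 1 and control 3 are tied to 2 decimals and the remaining pairs of mice stand in the order of the index. The 6 lung epithelium genes, which all read below 5.50 in every mouse, ordered 14 of 15 pairs as the index does, so such agreement is not particular to mesothelial genes. Muc16, the mucin that binds mesothelin and the gene most like the index, read 5.16, 3.75 and 5.98 in knockouts 1 to 3, against 6.18, 6.22 and 4.94 in controls 1 to 3. Gpm6a, a membrane glycoprotein of neurons and mesothelium, read 7.48, 7.33 and 8.95 in knockouts 1 to 3, against 9.0, 8.82 and 8.04 in controls 1 to 3. Knockout 2 was lowest for both, and was lowest for 8 of the 15. Gpm6a was named after its values were seen.

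None of the 15 further genes passed between the groups (limma, 3 at an unadjusted p under 0.05, against 9.27% of all genes). Their means were lower among knockouts for 10 and higher for 5, against 44.9% lower of all genes, at a median of -0.12. The smallest p was that of Aldh1a1, a retinaldehyde dehydrogenase, which read 8.74, 8.62 and 8.54 in knockouts 1 to 3, against 7.85, 8.09 and 7.89 in controls 1 to 3. All 3 knockout mice lay above all 3 controls for Aldh1a1, a difference of 0.69 (SE 0.12, limma adjusted p = 0.107), and its order over the mice was unlike that of the index (r = -0.34). Calb2, the calcium-binding protein calretinin, was dim at 1.88 to 2.37 and differed by -0.32 (SE 0.11, limma adjusted p = 0.449), and Anxa8, an annexin, by 0.58 (SE 0.21, limma adjusted p = 0.473). Aldh1a2, the enzyme that makes retinoic acid in the embryonic epicardium, and Tbx18, an epicardial T-box factor, differed by -0.08 and 0.03 with ranges over the mice of 0.81 and 0.56, against 2.57 for Msln.

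**Figure D4:**
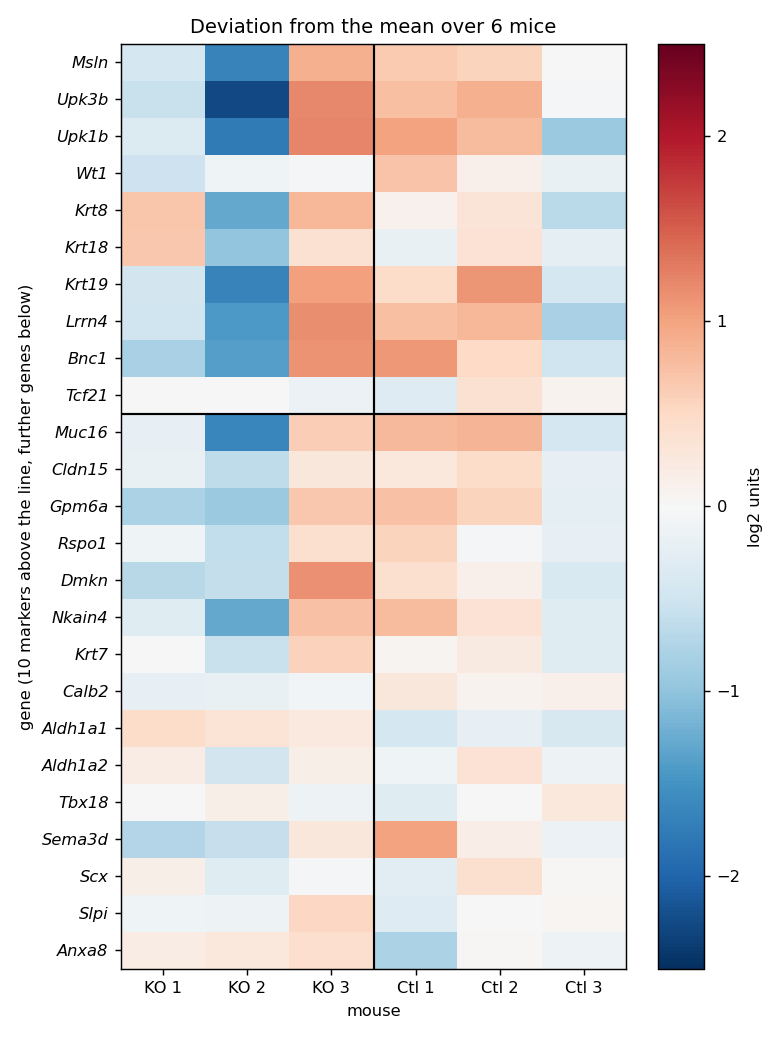
Deviation of each gene from its own mean over the 6 mice, in log2 units (red above, blue below), for the 10 genes (above the line) and the 15 further mesothelial and epicardial genes (below it). Knockout 2 is the bluest column and knockout 3 is red for most of the genes, while Tcf21, Aldh1a2 and Tbx18 are pale.

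Genes were also ranked over the array by how closely they followed the index, using Pearson's r over the 6 mice as a plain measure of likeness. Candidates were the 907 named genes that are not among the 10, have a mean above the median of all probe sets and a range of at least 1 log2 unit. With 6 points per gene many profiles come close by chance, so r is given without a test. The 8 with the highest r were Muc16 (0.980), Chst4 (0.977), Cldn15 (0.975), Nkain4 (0.975), C2 (0.946), Aebp1 (0.939), Adamts4 (0.923) and Cyp2s1 (0.920). Of these 8, Muc16, Cldn15, a tight junction claudin, and Nkain4, a protein that interacts with the sodium pump, belong to the 15 further mesothelial and epicardial genes, of which 5 were among the candidates. Chst4, a sulfotransferase that modifies mucin-type sugars, read 4.80, 3.48 and 6.62 in knockouts 1 to 3, against 5.54, 6.18 and 4.80 in controls 1 to 3. Cyp2s1, a cytochrome P450 of epithelia, read 5.40, 4.97 and 7.28 in knockouts 1 to 3, against 7.04, 6.41 and 5.83 in controls 1 to 3. C2, a complement component, Aebp1, a collagen-binding matrix protein, and Adamts4, a matrix protease, completed the set with ranges of 2.51, 1.08 and 1.32. None of the 8 passed between the groups, with limma adjusted p from 0.767 to 0.951.

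The list means of markers of other cells had smaller ranges over the mice than the index. They ran from 0.08 for cardiomyocytes to 0.96 for red blood cells, in which 3 of 6 listed genes were measured. The mean of the 15 further mesothelial and epicardial genes had a range of 0.87, below that of red blood cells and above that of macrophages, 0.73. Genes that move apart cancel in such a mean: Slc4a1 of red blood cells ranged over 2.07 and Cd3g of lymphocytes over 1.92, both named after their values were seen. The cardiomyocyte genes had means of 12.0 to 13.7, where the highest value on the arrays was 14.1, so their range is set against that of dimmer genes. The mean deviation of 12 fibroblast genes lay between -0.09 and 0.10, a range of 0.19 against 2.02 for the index, although 14 of 15 pairs of mice were ordered alike. None of the 12 passed (limma, 0 at an unadjusted p under 0.05), and the smallest p belonged to the matrix genes Dpt (difference 0.11) and Pcolce (-0.12) and to Gsn, an actin-severing protein (0.08). The lists of 10 endothelial and 10 smooth muscle and pericyte genes had ranges of 0.29 and 0.30. The 6 lung epithelium genes had a range of 0.23, and 9 adipocyte genes one of 0.43, highest in knockout 1. The mean deviation of 4 lymphocyte genes was also highest in knockout 1, at 0.40, against 0.21 in control 3, the next highest. Of these 4, Cd3e and Cd3g were highest in knockout 1, Cd79a in control 3 and Ms4a1 in control 1. All 4 read below 5.50, the highest Y-linked reading, in every mouse. Of 20 genes of the epicardial transition to mesenchyme and its signals, none passed (limma), and 2 had an unadjusted p under 0.05, a share near the 9.27% of all genes. Their mean deviation had a range of 0.13, although Tgfb1, named after its values were seen, ranged over 1.90. The smallest p belonged to the growth factor genes Fgf9 (difference 0.54, limma adjusted p = 0.255) and Fgf10 (0.27, adjusted p = 0.569) and to Nes, an intermediate filament gene (-0.38, adjusted p = 0.416). Whether any of these cell types had a part in the values of the 10 genes was not tested.

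Macrophage genes were also low in knockout 2. The mean deviation over 10 of them was 0.09, -0.46 and -0.15 in knockouts 1 to 3, against 0.14, 0.28 and 0.09 in controls 1 to 3. All 10 genes were lower on average in the knockout mice, with a median difference of -0.35, and 9 of the 10 were lowest in knockout 2. None passed over all probe sets (limma, 4 at an unadjusted p under 0.05, where 9.27% of all genes are). The smallest p belonged to the scavenger receptors Mrc1 (difference -0.51, SE 0.13, limma adjusted p = 0.288) and Cd163 (-0.38, SE 0.12, adjusted p = 0.381) and to Adgre1, a macrophage surface receptor (-0.47, SE 0.15, adjusted p = 0.405). Against the index, 10 of 15 pairs of mice were ordered alike and knockout 3, the highest in the index, was the second lowest for macrophage genes.

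**Figure D5:**
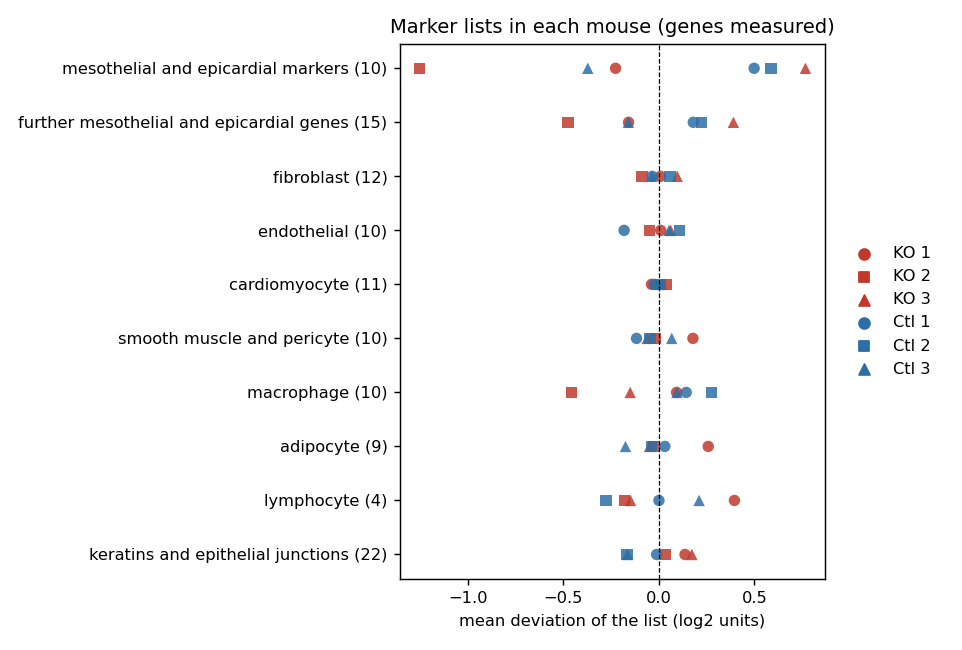
Mean deviation from the mean over 6 mice, in log2 units, of the genes of each list (number of genes measured in brackets), with 1 point per mouse (red, knockout; blue, control). The 10 mesothelial and epicardial markers range from -1.25 to 0.77, and cardiomyocyte genes from -0.04 to 0.04.

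The index also serves as a measured covariate for the rest of the array. None of the 86 probe sets that passed between the groups belonged to the 10 genes or to the 15 further genes. When the index of each mouse was added to the fit, all 86 kept their sign and an unadjusted p under 0.05, and the median size of their differences was 1.37, against 1.39 without it. No probe set passed at an adjusted p under 0.05 in that fit (3199 at an unadjusted p under 0.05), which has 1 residual degree of freedom fewer. The 86 were chosen on these same arrays, so their persistence is a description.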

How the data were processed

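Expression was measured in 6 left ventricular apices, 3 PTIP KO and 3 PTIP+, with 1 array per mouse and biotin-labelled target made with the NuGen Ovation system, per the labels' protocols. The deposited values are log2 expression values that the authors made with RMA, per the submitters' processing notes. Its version and a genome build were not given in the sources used here. The values run from 1.36 to 14.1, from which the base of the logarithm was taken. RMA makes the arrays alike in overall distribution and compresses changes of dim probe sets. Precision is limited by the number of arrays.

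The table lists 45101 probe sets, and the 64 used as array controls were dropped. The annotation gave 1 gene for 34945, several for 932 and none for 9160, with symbols brought up to date by Entrez identifier (34741 matched) in RefSeq's GRCm38.p6 gene table. The test of knockout minus control was two-sided, by lmFit and eBayes of limma 3.58.1 (R 4.3.3), on all 45037 probe sets with Benjamini-Hochberg adjustment over all of them, and an adjusted p under 0.05 passed. Single probe sets also had an exact permutation test. The fit was tested on simulated data with changes put into probe sets above the median. It recovered 54 of 100 changes of 1 log2 unit and 94 of 100 of 2 log2 units, with 7 false calls. Many 2-fold changes would thus be missed. On the arrays, probe sets above the median had a median within-group standard deviation of 0.18. That of the mesothelial and epicardial markers described here was 1.02. The recovery rates therefore do not carry over to these markers, for which recovery was not tested separately.

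The 10 genes and the other gene lists were chosen with earlier results of these data known. Named were all probe sets of the 10 genes, up to 3 genes of smallest p of each other list described, and the 8 genes most like the index; others are said to be chosen after their values were seen. Of the 11 adipocyte and 5 lymphocyte genes listed, 9 and 4 were measured. The limma p values set the group difference against the spread between single mice, which eBayes draws toward a value common to all probe sets. Alternatives were other variance priors, array weights, filters, scalings, a replicate block, left-out mice, a 4-array subset and other summaries, and, added after seeing the data, the index as a covariate and an index without Wt1 and Tcf21.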

Additional observations from a re-analysis of the deposited data

How the results depend on the processing

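No probe set of the 10 genes passed in any of the 18 other settings run for that count. The index difference between the groups, -0.48, lay between -0.60 and -0.13 in the settings with all mice and between -0.98 (without knockout 3) and 0.03 (without knockout 2) when 1 mouse was left out. The median difference, -0.55, ran from -1.29 to -0.11 with 1 mouse left out. Among the 4 mice of one run of description numbers (knockout 3 and all controls), the index difference was 0.53 and the median 0.66, and those of Msln (0.49), Upk3b (0.67), Upk1b (0.94), Krt19 (0.65), Lrrn4 (0.91) and Bnc1 (0.77) turned, since that subset holds only the knockout mouse with the highest readings. With array weights, Upk1b (0.062) and Lrrn4 (0.048) turned sign, and Upk3b stood at -0.58, Msln at -0.42, Krt19 at -0.32, Wt1 at -0.21 and Bnc1 at -0.08. With 1 mouse left out, sign turned in some settings for Upk1b (-1.34 to 0.15), Lrrn4 (-1.23 to 0.072), Krt8 (-0.21 to 0.85), Krt18 (-0.29 to 0.54) and Tcf21 (-0.29 to 0.069), and in none for Msln (-1.46 to -0.18), Upk3b (-1.94 to -0.21), Wt1 (-0.64 to -0.19), Krt19 (-1.43 to -0.09) or Bnc1 (-1.45 to -0.20), whose sizes moved by over 1.5 times. Over the whole array, the 86 probe sets that passed became 185 with a variance trend, 51 with a robust prior, 1 without moderation, 204 with array weights, 196 at an adjusted p under 0.1, and 0 in the 4-array subset, with the index as a covariate or with the replicate block. With 1 mouse left out the count was 0 to 21. Replicate numbers were taken as shared numbers only, since deviations of same-numbered mice correlated at -0.15, -0.08 and -0.01, and the block changed no call for the 10 genes. Readings of the dimmer genes in the low mice lie near background, which limits how far a decrease can be seen.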
